A study of Mus musculus with 10 samples.

Results

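The genes described here encode proteins of the colonic goblet cell. The set was fixed by name, with earlier results of these data known. It holds 10 genes: Muc2, Tff3, Fcgbp, Zg16, Agr2, Spink4, Retnlb, Clca1, Klk1 and Sytl2. Of these, 8 had array probes that matched by accession and were measured, among 14478 genes tested on the arrays. Muc2 and Fcgbp had no matching probe accession and were not analysed here. RNA from 7 colon tumors and from normal epithelium beside them (3 samples) was hybridised to single-colour mouse oligonucleotide arrays, 1 array per sample. The tumors were tubular adenomas with an activating Ctnnb1 mutation, per the labels, and the normals were wild type for Ctnnb1. Mouse 41 (male) and mouse 42 (female) each gave 3 tumors and 1 normal, and mouse 43 (male) gave 1 tumor and 1 normal. All animals, and so the normals too, were CYP1A-humanized and had received PhIP, a carcinogen of cooked meat, at 6 weeks of age in 2 doses of 100 mg/kg. They then drank 1.5% dextran sulfate sodium (DSS), an agent that damages the gut lining, for 1 week, were kept for 8 weeks on AIN93M diet, and were sampled at 16 weeks. Tissue was dissected under a microscope. The series holds no untreated animals, and the tumors of 1 mouse share that mouse's only normal.

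Goblet cells are secretory cells of the intestinal epithelium that make the mucus layer. The mucin Muc2 is folded in the endoplasmic reticulum, heavily glycosylated in the Golgi, packed into granules and released into the lumen, where it unfolds into a net that keeps bacteria off the cells. Other secreted proteins travel with it. Tff3 is a trefoil peptide of epithelial repair, Fcgbp a large mucus component, Zg16 a lectin that binds Gram-positive bacteria, Retnlb a resistin-like antimicrobial protein, Clca1 a metalloprotease of the mucus, Spink4 a Kazal-type protease inhibitor and Klk1 tissue kallikrein, a serine protease. Agr2 is a protein disulfide isomerase of the endoplasmic reticulum that mice need for mucin production. Sytl2 is not secreted: it is a synaptotagmin-like protein that binds Rab27 on granules.

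On each array, 57.7% to 66.7% of gene probes exceeded the background. All 11 probes of the measured goblet cell genes were above background on all 10 arrays. Levels are given as log2 normalized intensity, which can be compared between samples for 1 gene but not between genes. The number of arrays limits the precision, and over all genes the SE of the difference between tumors and normals had a median of 0.11. All 9 epithelial marker genes, Epcam and Cdh1 among them, were above background on every array. All 3 normals and tumors 41-1, 41-3 and 42-3 were scanned in an earlier session, and tumors 41-2, 42-1, 42-2 and 43-1 in a later one. The sessions were formed here by splitting the arrays by the hour of the scan in the file headers. Every scan of the later session, and none of the earlier one, was marked redip or rescan. These marks and the session cannot be told apart. Squamous epithelium markers were high in tumor 43-1 and in the normal of mouse 42, and pancreatic acinar markers in the normal of mouse 43; the results for the goblet cell genes are given with and without them.

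Most of the measured goblet cell genes were lower in the tumors. In a model with the mouse as a block, 7 of 8 passed a limma adjusted p under 0.05 as lower in tumors and 0 as higher, where 23.7% of all 14478 genes were lower and 25.9% higher. The median log2 difference of the 8 genes was -1.10, against 0.0087 over all genes. Of the 8, 5 were both past the threshold and at least 2-fold lower, against 5.42% of all genes. For the same 7 genes every tumor lay below every normal, which held for 20% of all genes. The set was chosen with earlier results of these data known, so these counts beside all genes are a description. Spink4 was the gene that did not pass. The tumors come from 3 mice, and with the tumors averaged within each mouse 5 of 8 passed as lower, where 2480 of 14478 genes were lower. In these bulk samples, fewer goblet cells and less RNA per goblet cell cannot be told apart. The normals varied little, with SDs from 0.045 to 0.27 over 3 samples, while the 7 tumors had SDs from 0.23 to 0.88.

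**Figure D1:**
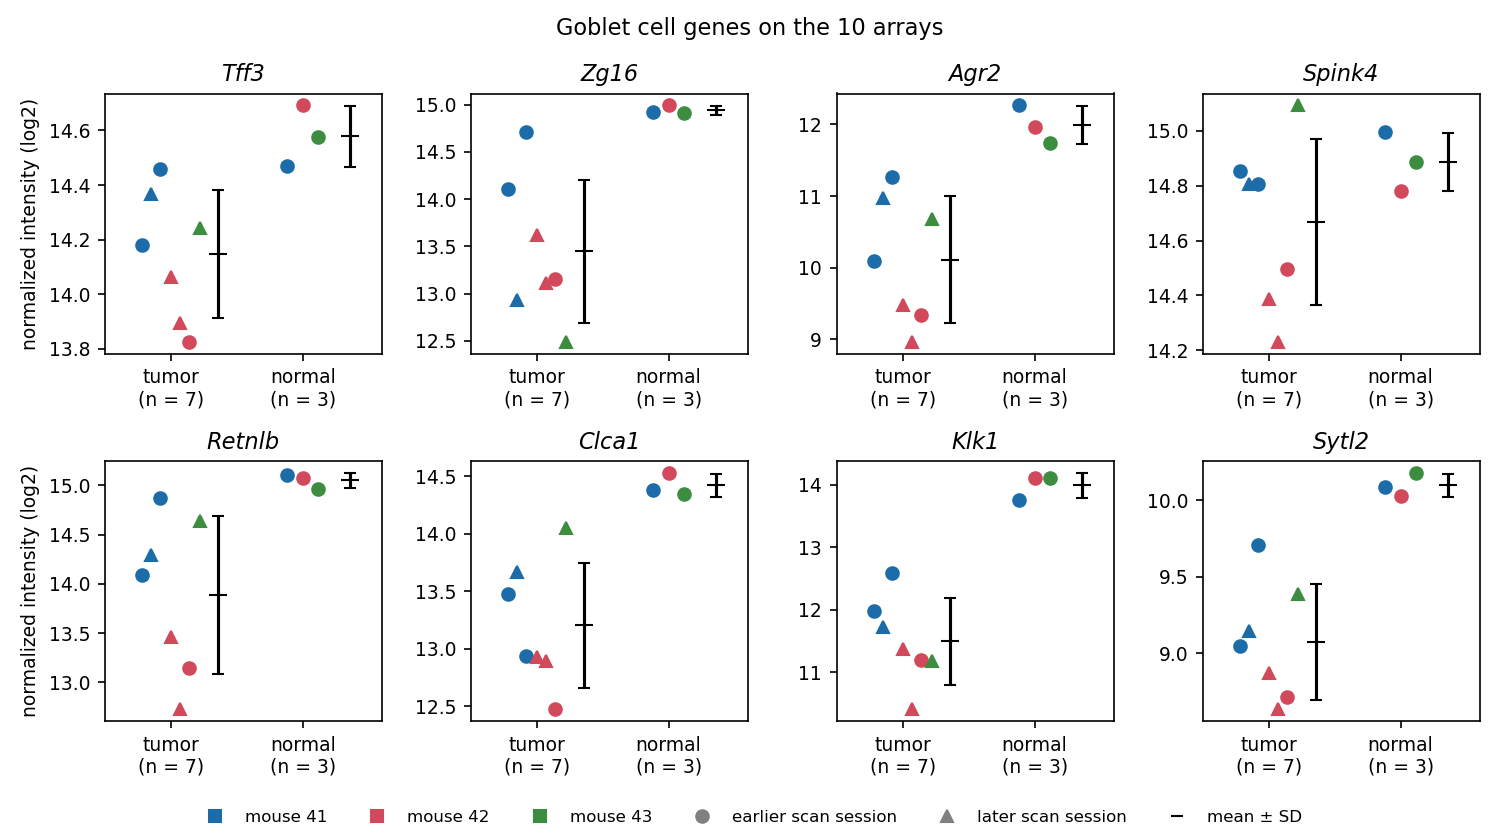
Normalized log2 intensity of the 8 measured goblet cell genes on each array, with 7 tumors left and 3 normals right in each panel. Colour gives the mouse, circles and triangles the earlier and later scan session, and bars the mean and SD; Spink4 alone has tumors (15.09 at most) above normals (14.78 at least), and the red tumors of mouse 42 lie low in most panels.

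By the spot mean of the brightest probe, the protease Klk1 had the largest fall, an order that changed with other measures of the spot, given further on. Its level was 11.98, 11.72 and 12.60 in the tumors of mouse 41, 11.37, 10.40 and 11.20 in those of mouse 42 and 11.19 in that of mouse 43, against 13.76, 14.11 and 14.11 in the normals of mice 41, 42 and 43. Even the highest tumor, 41-3, stood 1.16 below the lowest normal, so the groups did not overlap. Klk1 averaged 11.49 ± 0.69 in tumors (SD, n = 7) and 13.99 ± 0.20 in normals (SD, n = 3). The difference was -2.52 ± 0.32 (SE, 95% interval -3.25 to -1.79), or 5.74-fold lower, with a limma adjusted p of 0.000269. Agr2, the isomerase that mucin folding needs, was 10.09, 10.97 and 11.26 in the tumors of mouse 41, 9.47, 8.97 and 9.34 in those of mouse 42 and 10.67 in that of mouse 43. The normals had 12.27, 11.96 and 11.73. All 7 tumors were below all 3 normals, and the tumors of mouse 42 were the lowest. Agr2 averaged 10.11 ± 0.88 in tumors (SD, n = 7) and 11.99 ± 0.27 in normals (SD, n = 3), a difference of -1.84 ± 0.32 (SE), 3.58-fold lower, with a limma adjusted p of 0.00142. Agr2 passed the threshold in all 30 alternative settings, with differences from -2.10 to -1.32.

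Promoters of Agr2 and Klk1 are shown because these genes had the largest falls by the spot mean of the brightest probe and are the measured members with an entry in the RefSeq promoter table (GRCm38.p6). Each line runs 5′ to 3′ on the + strand and gives the 250 bases before the start site, at chr12:35992675-35992924 for Agr2 and chr7:44225110-44225359 for Klk1. Capitals mark matches, on either strand, to CAGCTG (an E-box bound by ATOH1), TTTATNG (CDX factors), CACCC (KLF factors) or TGTTTNC (FOXA factors).
Agr2: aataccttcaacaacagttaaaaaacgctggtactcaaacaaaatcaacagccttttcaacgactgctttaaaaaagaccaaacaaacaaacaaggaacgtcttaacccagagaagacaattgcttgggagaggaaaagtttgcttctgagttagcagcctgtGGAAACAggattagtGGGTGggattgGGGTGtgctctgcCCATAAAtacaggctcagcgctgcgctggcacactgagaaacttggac
Klk1: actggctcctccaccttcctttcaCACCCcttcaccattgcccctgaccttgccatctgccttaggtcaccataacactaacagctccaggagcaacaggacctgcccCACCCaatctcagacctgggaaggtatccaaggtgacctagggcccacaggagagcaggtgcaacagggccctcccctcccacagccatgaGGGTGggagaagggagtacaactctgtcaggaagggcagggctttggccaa
The Agr2 window holds a FOXA match beginning 87 bases before the start, KLF matches at 72 and 61 bases and a CDX match at 48 bases. The Klk1 window holds KLF matches at 226, 142 and 51 bases. Neither holds the E-box. Among 32851 promoters of this length, 52.0% hold the KLF letters, 17.8% the FOXA letters, 13.0% the E-box and 9.8% the CDX letters, so a KLF match is what most promoters have. A match is a string of letters and not a measured binding site.

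Zg16, Retnlb and Clca1, which act on bacteria or on the mucus itself, were each more than 2-fold lower. Zg16 was 14.11, 12.93 and 14.71 in the tumors of mouse 41, 13.62, 13.11 and 13.16 in those of mouse 42 and 12.49 in that of mouse 43, against 14.92, 14.99 and 14.91 in the normals. The normals lay within 0.1 of each other, whereas tumor 41-3 came close to them and tumor 43-1 was the lowest. The means were 13.45 ± 0.76 in tumors (SD, n = 7) and 14.94 ± 0.045 in normals (SD, n = 3), a difference of -1.62 ± 0.37 (SE) or 3.07-fold, with a limma adjusted p of 0.00552. Retnlb had levels of 14.10, 14.30 and 14.88 in the tumors of mouse 41, 13.46, 12.73 and 13.14 in those of mouse 42 and 14.64 in that of mouse 43. Its normals had 15.11, 15.08 and 14.97. Tumors 41-3 and 43-1 were near the normals and the tumors of mouse 42 well below, with no overlap between the groups. Retnlb averaged 13.89 ± 0.80 in tumors (SD, n = 7) and 15.05 ± 0.077 in normals (SD, n = 3), a difference of -1.08 ± 0.30 (SE), 2.11-fold lower, with a limma adjusted p of 0.0150. That call was lost without the normal of mouse 42 (difference -0.54, limma adjusted p = 0.142) and with the tumors averaged within each mouse (difference -0.99, limma adjusted p = 0.0706). With the mouse as a block, leaving out a mouse's only normal also takes that mouse's tumors out of the difference. The difference without mouse 42 as a whole was -0.54 as well.

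Clca1 was measured by a pair of probes that differed in size of change. On the brighter one (mMR027145) the tumors of mouse 41 had 13.48, 13.67 and 12.94, those of mouse 42 had 12.93, 12.90 and 12.48, and that of mouse 43 had 14.05, against 14.38, 14.53 and 14.35 in the normals. Tumor 43-1 was closest to the normals and tumor 42-3 farthest, without overlap. The means were 13.21 ± 0.54 in tumors (SD, n = 7) and 14.42 ± 0.097 in normals (SD, n = 3), a difference of -1.12 ± 0.25 (SE), 2.17-fold lower, with a limma adjusted p of 0.00500. On the dimmer probe (mMC008784) the tumors ran from 6.87 to 7.87 and the normals from 9.67 to 9.90. Its difference was -2.32 ± 0.15 (SE), with a limma adjusted p of 1.8e-05 over 20054 probes. The brighter probe's call was lost without the normal of mouse 42 (difference -0.73, limma adjusted p = 0.0511). Its difference without mouse 42 as a whole was -0.73 as well.

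Tff3 and Spink4 had the smallest differences. Tff3 was 14.18, 14.37 and 14.46 in the tumors of mouse 41, 14.06, 13.90 and 13.83 in those of mouse 42 and 14.24 in that of mouse 43, against 14.47, 14.69 and 14.58 in the normals. The groups did not overlap, but tumor 41-3 was only 0.0093 below the normal of its own mouse. Tff3 averaged 14.15 ± 0.23 in tumors (SD, n = 7) and 14.58 ± 0.11 in normals (SD, n = 3), a difference of -0.42 ± 0.13 (SE, 95% interval -0.70 to -0.14), 1.34-fold lower, with a limma adjusted p of 0.0207. It was among the least secure calls: 20 of 30 alternatives kept it, and without the normal of mouse 42 the difference was -0.21 (limma adjusted p = 0.205). Without mouse 42 as a whole the difference was -0.21 as well. With the tumors averaged within each mouse it was -0.41 (limma adjusted p = 0.0881). Spink4 was 14.85, 14.81 and 14.81 in the tumors of mouse 41, 14.39, 14.23 and 14.50 in those of mouse 42 and 15.09 in that of mouse 43, against 14.99, 14.78 and 14.89 in the normals. The groups overlapped, and tumor 43-1 had the highest value of all 10 arrays. Spink4 averaged 14.67 ± 0.30 in tumors (SD, n = 7) and 14.89 ± 0.11 in normals (SD, n = 3). The difference was -0.17 ± 0.11 (SE, 95% interval -0.41 to 0.08), with a limma adjusted p of 0.234, so a fall of up to 0.41 or a rise of up to 0.08 lies within the interval. Without mouse 43 it was -0.29, with a limma adjusted p of 0.0434.

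Sytl2, the granule protein, was measured by 3 probes. On the brightest (mMC010102) its level was 9.05, 9.14 and 9.71 in the tumors of mouse 41, 8.87, 8.63 and 8.72 in those of mouse 42 and 9.39 in that of mouse 43, against 10.09, 10.02 and 10.18 in the normals. Every tumor was below every normal. The means were 9.07 ± 0.38 in tumors (SD, n = 7) and 10.10 ± 0.078 in normals (SD, n = 3), a difference of -0.97 ± 0.16 (SE), 1.96-fold lower, with a limma adjusted p of 0.000976. The other probes gave -0.90 (mMA035327, limma adjusted p = 0.00387) and -0.67 (mMA034474, limma adjusted p = 0.00465). On the dimmest, mMA034474, the groups overlapped, with tumors from 6.80 to 7.73 and normals from 7.54 to 8.39.

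The size of several differences depended on how a spot was summarised. The values above use the mean over a spot's pixels. With the spot median, Zg16 differed by -4.32 (limma adjusted p = 0.00421) and Retnlb by -2.05, while Klk1 differed by -1.47 and no longer passed (limma adjusted p = 0.105), so that Zg16 and not Klk1 differed most. In the authors' deposited table, which holds scaled spot medians, Zg16 differed by -4.71 (26.1-fold lower, limma adjusted p = 0.000201), Retnlb by -2.38 and Klk1 by -1.73 (limma adjusted p = 0.0365). Tff3 did not pass under either measure, with differences of -0.40 (limma adjusted p = 0.453) and -0.62 (limma adjusted p = 0.250). Zg16, Retnlb, Agr2, Clca1 and Sytl2 passed under all 3 measures. Spots of Klk1 were uneven: the normals of mice 41, 42 and 43 had spot means of 14582, 16546 and 18178 and spot medians of 1133, 1499 and 2085. Uneven spots were not particular to Klk1. Agr2 had a mean of 4988 and a median of 913 in the normal of mouse 41, and Tff3 had 24895 and 4819 in that of mouse 43. For Zg16 the tumors were uneven, with 9434 and 864 in tumor 42-3, and the normals even, with 31399 and 30890 in that of mouse 41. Several probes were among the brightest of an array. Zg16 ranked 55 to 585 by spot mean among the gene probes of the tumor arrays and 32, 24 and 33 on the normal arrays, where its spot means were 31399, 31299 and 31896. Spink4 ranked 14 to 122 on the tumor arrays and 23, 47 and 36 on the normal arrays. Retnlb ranked 37 to 475 on the tumor arrays and 12, 15 and 26 on the normal arrays. The brightest spots of the 10 arrays reached 38605 to 46256. The part of this brightness in the size of the differences was not tested.

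**Figure D2:**
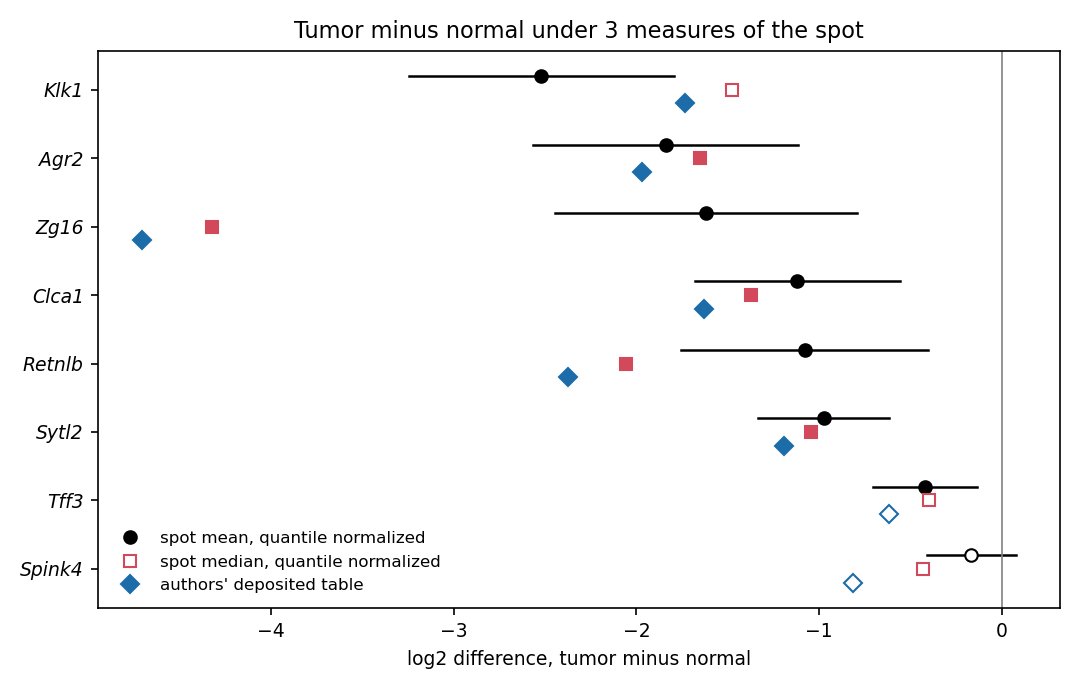
Log2 difference, tumor minus normal, for the 8 measured goblet cell genes under 3 measures of the spot; black bars are 95% intervals and open symbols did not pass an adjusted p under 0.05. All 24 symbols lie below 0, and Zg16 moves most, by -1.62 with the spot mean and -4.71 in the authors' deposited table.

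Against the normal of the same mouse, nearly every gene was lower in every tumor. All 8 were lower in 6 of 7 tumors, and 7 of 8 in tumor 43-1, where Spink4 was higher by 0.21. The shares of all genes lower, or more than 2-fold lower, in each tumor are not given, so the counts here are a description only. The median difference over the 8 genes was -0.96, -0.88 and -0.31 in the tumors of mouse 41, -1.49, -1.76 and -1.88 in those of mouse 42 and -0.56 in tumor 43-1. Tumor 41-3 was thus the least changed and the tumors of mouse 42 the most changed by this median. More than 2-fold falls were seen for 4, 3 and 3 genes in the tumors of mouse 41, for 6 genes in each tumor of mouse 42 and for 3 genes in tumor 43-1. In that tumor Klk1 was 7.59-fold and Zg16 5.36-fold below its normal, while Retnlb was 1.25-fold and Clca1 1.23-fold below. The order of the genes therefore differed between tumors. Klk1 in tumor 42-2 was 13.0-fold below its normal, the largest fall of any of the 8 genes in any tumor by the spot mean.

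**Figure D3:**
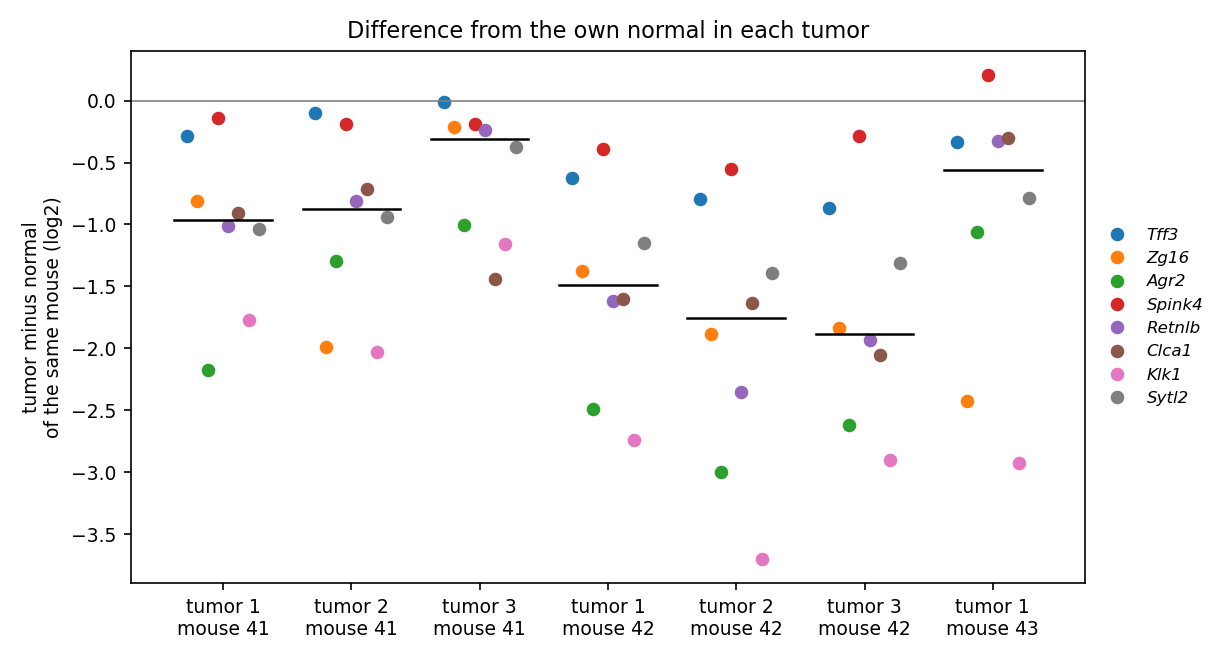
Log2 difference of each tumor from the normal of its own mouse, with 1 point per goblet cell gene and a bar at the median of the 8. The bars lie between -1.49 and -1.88 in the tumors of mouse 42 and between -0.31 and -0.96 in the others, and only Spink4 in tumor 43-1 lies above 0.

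All 8 genes had lower means in the tumors of mouse 42 than in those of mouse 41, but none passed the test over all genes. The differences, mouse 42 minus mouse 41, ran from -1.51 for Agr2 and -1.31 for Retnlb to -0.41 for Tff3. Agr2 averaged 9.26 ± 0.26 in the tumors of mouse 42 and 10.77 ± 0.61 in those of mouse 41 (SD, n = 3 each). Retnlb averaged 13.11 ± 0.37 in the tumors of mouse 42 and 14.42 ± 0.41 in those of mouse 41 (SD, n = 3 each). In limma 0 of 8 passed, where 0.221% of all genes did, with adjusted p from 0.0885 for Retnlb to 0.477 for Zg16, and 7 of 8 had an unadjusted p under 0.05. The share of all genes at that unadjusted cut is not given, so the 7 are a description only. With median scaling 2 passed (Agr2, limma adjusted p = 0.0340, and Retnlb, 0.0353), where 123 of 14478 genes were lower and 23 higher. Without tumor 41-1 Agr2 passed (limma adjusted p = 0.0220), where 56 of 14478 genes were lower and 55 higher. In the main fit 14 were lower and 18 higher. The tumor minus normal differences of these mice were set against each other as well. In limma 0 of 8 passed, where 0.401% of all genes did, with adjusted p from 0.611 to 0.862 and an unadjusted p under 0.05 for Tff3, Retnlb and Klk1. Here too the share of all genes at the unadjusted cut is not given. Klk1 differed from its normal by -3.11 in mouse 42 and -1.66 in mouse 41, and Retnlb by -1.97 in mouse 42 and -0.69 in mouse 41. With 1 normal per mouse the intervals were wide, such as -2.85 to -0.07 for the difference between these Klk1 effects. Mouse 42 was the only female, so sex and animal cannot be told apart.

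Genes that act upstream of the secreted proteins were lower as well. Of 10 measured regulators of goblet cell fate and of the secretory endoplasmic reticulum, 7 fell, 0 rose and 3 did not pass, with a median difference of -1.45. Beside this count and those of all lists below, 23.7% of all genes were lower and 25.9% higher. The lists too were chosen with earlier results of these data known. Atoh1, the transcription factor that starts the secretory lineage, averaged 7.54 in tumors and 9.68 in normals, a difference of -2.17 ± 0.16 (SE), 4.49-fold lower, with a limma adjusted p of 2.72e-05. Klf4, a factor that mice need for colonic goblet cell differentiation, fell 4.24-fold (difference -2.09 ± 0.25, SE, limma adjusted p = 0.000200), and Spdef, which acts after Atoh1, fell 4.17-fold. Creb3l1, a membrane-bound factor of secretory cells, fell 3.58-fold (difference -1.84 ± 0.11, SE, limma adjusted p = 1.3e-05). Ern2, a stress sensor of the endoplasmic reticulum of mucous cells, fell 2.95-fold (limma adjusted p = 0.000119). The forkhead genes did not pass: Foxa3 differed by 0.29 (limma adjusted p = 0.0538), Foxa2 by 0.19 and Foxa1 by -0.01.

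Enzymes that glycosylate or crosslink mucins followed the same direction. Of 19 measured, 16 fell, 0 rose and 3 did not pass, with a median of -0.84. Tgm3, a transglutaminase, averaged 7.55 in tumors and 10.03 in normals, 6.06-fold lower (difference -2.60 ± 0.28, SE, limma adjusted p = 0.000117). Galnt7, which adds the sugars that begin O-glycans, fell 3.34-fold and Fut2, a fucosyltransferase, fell 1.79-fold. Galnt5 of the same family as Galnt7 was above background in 2 of 7 tumors and in all 3 normals, with a difference of -0.78. Galnt3, St3gal4 and St3gal1 did not pass.

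Granule traffic genes showed 8 falls, 0 rises and 4 that did not pass among 12 measured, with a median of -1.05. Scin, an actin-severing protein, averaged 8.52 in tumors and 11.33 in normals, 7.00-fold lower (difference -2.81 ± 0.17, SE, limma adjusted p = 1.63e-05). Relatives of Sytl2 fell too, Sytl4 by 3.39-fold and Sytl1 by 2.74-fold, and Rep15, a Rab15 effector, fell 3.51-fold. Rab27a and Rab27b, the GTPases that Sytl2 binds, fell 2.45-fold and 2.35-fold. Stx3, Stxbp2, Sytl3 and Snap23 did not pass. Of 14 other genes known from goblet cells, 10 fell, 0 rose and 4 did not pass, with a median of -1.23. Hepacam2 fell 4.86-fold (difference -2.28 ± 0.16, SE, limma adjusted p = 2.36e-05), and Bcas1, Capn9 and Tpsg1 fell 3.36-fold, 3.38-fold and 3.36-fold. The 4 that did not pass were Tff1 (0.55), the ribonuclease Ang4 (0.61), Muc1 (0.28) and Agr3 (-0.20), so the trefoil gene Tff1 and Agr3 gave no call beside Tff3 and Agr2. Another trefoil gene, Tff2, did pass as lower (difference -1.55 ± 0.57, SE, limma adjusted p = 0.0482). Tff2 was above background in 3 of 7 tumors and in all 3 normals.

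**Figure D4:**
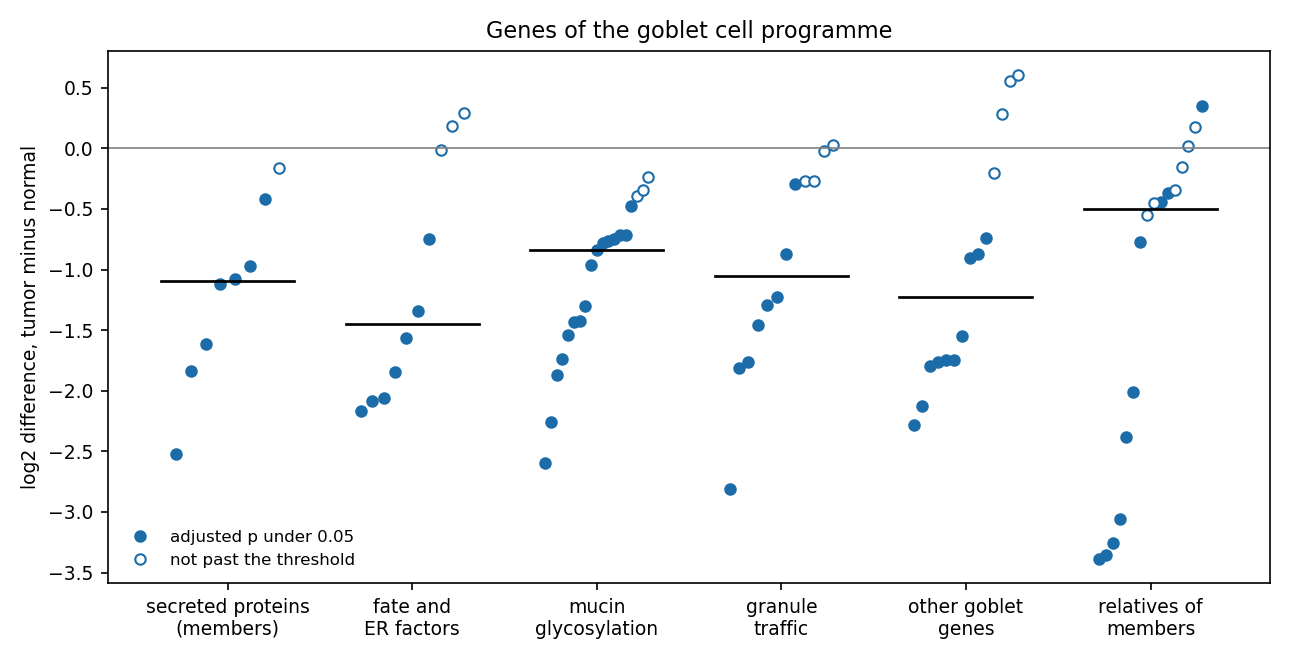
Log2 difference, tumor minus normal, of each measured gene in 6 groups, with 1 point per gene and a bar at the group's median; filled points passed an adjusted p under 0.05. The medians are -1.10 for the secreted proteins, -1.45 for the fate factors, -0.84 for glycosylation, -1.05 for granule traffic, -1.23 for other goblet cell genes and -0.50 for relatives.

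Gene relatives of the members were less uniform. Of 16 measured, 9 fell, 1 rose and 6 did not pass, with a median of -0.50. The mouse has a cluster of Klk1b kallikreins close in sequence to Klk1, and probes of such paralogs may pick up each other's RNA, so their signals cannot be told apart here. Klk1b8 averaged 9.25 in tumors and 12.60 in normals, 10.5-fold lower (difference -3.39 ± 0.31, SE, limma adjusted p = 5.34e-05). Klk1b3 and Klk1b27 fell 10.2-fold and 9.54-fold, and Klk1b11 fell 5.22-fold (limma adjusted p = 1.63e-05). Klk1b26, Klk10 and Klk15 did not pass. Among relatives of Clca1, Clca4a differed by -2.01 and Clca3b by -0.77, and both passed, whereas Clca3a1 (-0.35) did not. Retnlg, a relative of Retnlb, differed by -0.55 and did not pass. Spink2, a relative of Spink4, rose by 0.35 (limma adjusted p = 0.0144). Spink2 was not above background in any normal and was above it in 4 of 7 tumors, which bounds its rise at 1.02-fold or more. Most of the relatives that fell were Klk1b genes, each counted as a separate gene although their signals cannot be told apart. The 5 lists held 10 measured regulators, 19 enzymes, 12 granule genes, 14 other goblet cell genes and 16 relatives. Over these lists 50 genes fell, where 3438 of all 14478 genes did. Without the normal of mouse 42, and so without that mouse's tumors in the difference, 42 fell, where 2412 of all genes did. Without both arrays of high squamous score and the mouse block 45 fell, where 2844 did. A count of 48 fell without mouse 43, where 3184 did.

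The 8 genes varied together among the tumors to different degrees. Over the 7 tumors, Pearson's r of the 28 pairs ran from -0.38 to 0.96 with a median of 0.75, and 26 pairs were above 0. The highest was Agr2 with Retnlb (0.96) and the lowest Zg16 with Clca1 (-0.38). The tumors share 3 mice and are not independent, so these values are a description. Outside the set, the genes whose profile over the 10 arrays was most like the mean of the 8 were Nans, which makes sialic acid, and Mapt, Cilk1, Anxa11 and Pqlc3, each with Pearson's r of 0.99. The 10 arrays hold both groups, which any gene lower in tumors follows.

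Genes of other cell types changed in the same samples, and their part in the results above was not tested. A score is the mean over a list of each gene's log2 level minus its mean over the 10 arrays. The goblet cell genes scored from -1.02 to 0.29 in tumors and from 0.84 to 0.89 in normals. Absorptive cell markers fell in 8 of 8 genes, with scores from -1.92 to 0.88 in tumors and from 2.43 to 3.05 in normals. Enteroendocrine markers fell in 9 of 9, with scores from -1.11 to -0.27 in tumors and from 1.74 to 1.94 in normals. Tumor 41-3 had the highest score of all tumors for goblet cell genes (0.29) and for absorptive markers (0.88). Stem cell markers rose in 5 of 5 genes and fibroblast markers in 7 of 7, with stem scores from 0.08 to 0.79 in tumors and from -1.64 to -0.83 in normals, and fibroblast scores from -0.41 to 0.96 in tumors and from -1.41 to -1.12 in normals. Of 6 immune markers 4 rose and 1 fell, with scores from 0.07 to 0.45 in tumors and from -0.83 to -0.42 in normals. Of 5 markers of Paneth and deep crypt secretory cells 3 rose (Mmp7, Lyz1 and Itln1), Kit fell (-1.68) and Reg4 (0.28) did not pass. Their scores ran from 0.03 to 0.76 in tumors and from -1.34 to -0.06 in normals. Muscle markers fell in 4 of 6 genes, with scores from -0.52 to 0.30 in tumors and from -0.01 to 0.84 in normals, and tuft cell markers rose in 3 and fell in 3 of 8.

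Markers shared by all epithelial cells differed less. Of 9, 5 fell and Krt18 rose, with a median difference of -0.34 and scores from -0.24 to 0.23 in tumors and from 0.17 to 0.23 in normals. Relative to the mean of these markers on each array, 6 goblet cell genes remained past the threshold as lower: Klk1 (-2.22), Agr2 (-1.54), Zg16 (-1.32), Clca1 (-0.82), Retnlb (-0.78) and Sytl2 (-0.68). Under that scaling the median of all genes was 0.31, with 1542 genes lower and 6479 higher, against 3438 lower and 3749 higher without it. Tff3 then differed by -0.12 (limma adjusted p = 0.399), and Spink4 by 0.13 (limma adjusted p = 0.461), the opposite direction.

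Leaving out the arrays with markers of other tissues changed some calls. The squamous score was 2.48 in tumor 43-1 and 2.65 in the normal of mouse 42, and from -0.83 to -0.16 on the other 8 arrays. Without both arrays and without the mouse block, Tff3 (limma adjusted p = 0.0961) and Retnlb (0.0669) no longer passed and 5 goblet cell genes remained lower, where 2844 of 14478 genes were lower. Acinar scores lay between -0.89 and -0.65 in tumors, and were 5.27 in mouse 43's normal, 0.06 in mouse 41's and -0.11 in mouse 42's. The pancreas also makes Zg16 and kallikreins. In that normal Zg16 was 14.91 and Klk1 14.11, and the part of the acinar RNA in these levels was not tested. With the mouse as a block, leaving out that normal also takes tumor 43-1 out of the difference. Zg16 then differed by -1.35 (limma adjusted p = 0.0270) and Klk1 by -2.39 (limma adjusted p = 0.00178). All 8 goblet cell genes passed as lower, where 3184 of 14478 genes were lower and 3192 higher. The same values were obtained without mouse 43 as a whole. Leaving out the acinar array alone was not tested.

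**Figure D5:**
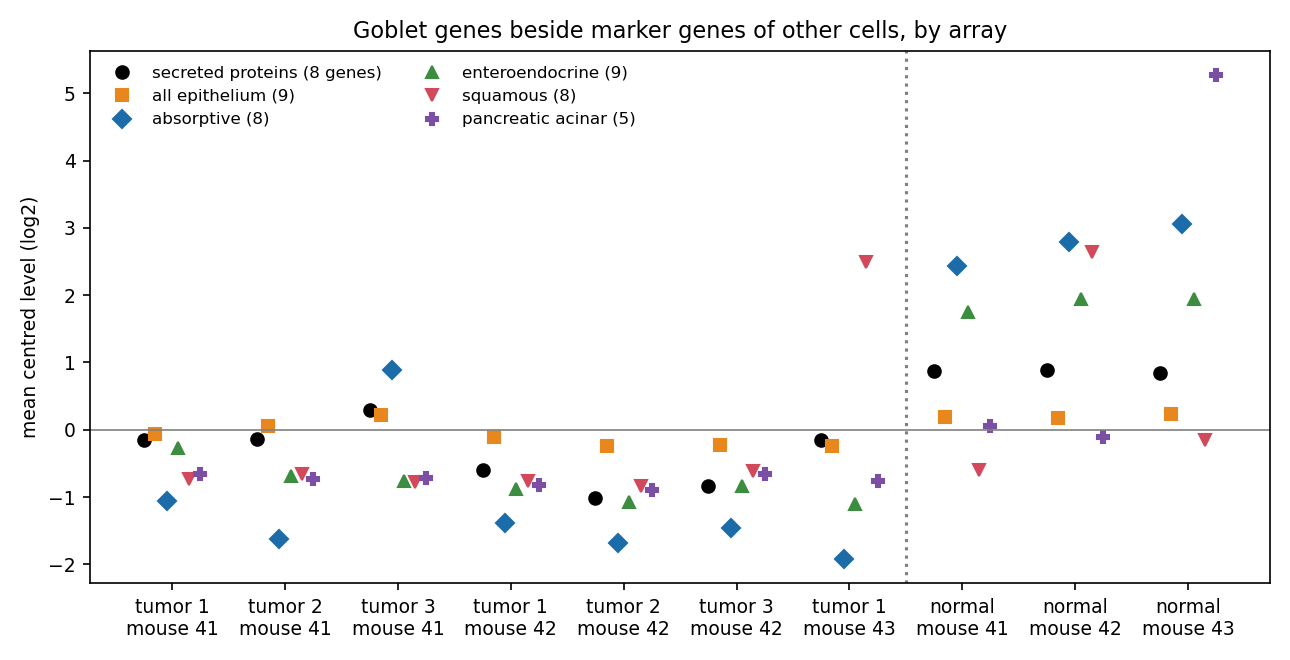
Mean centred log2 level of the 8 goblet cell genes and of 5 marker lists on each array, with the 7 tumors left and the 3 normals right of the dotted line. Goblet cell genes (black circles) reach at most 0.29 in tumors and at least 0.84 in normals; the acinar cross at 5.27 belongs to the normal of mouse 43 and the squamous triangles at 2.48 and 2.65 to tumor 43-1 and the normal of mouse 42.

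The later scan session held tumors only, all marked redip or rescan, so scans were compared within the earlier session too. Among its 3 tumors and 3 normals, Klk1 differed by -2.08, Agr2 by -2.03 and Clca1 by -1.55, and these 3 passed, where 1588 of 14478 genes were lower. Zg16 differed by -1.08 (limma adjusted p = 0.0996), Retnlb by -1.19 (0.0950), Sytl2 by -0.96 (0.0625), Tff3 by -0.46 (0.173) and Spink4 by -0.21 (0.173). All 8 goblet cell genes kept their direction. With the session as a further block over all 10 arrays, 4 passed as lower (Agr2, Clca1, Klk1 and Sytl2), where 2587 of 14478 genes were lower.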

How the data were processed

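RNA from 7 tumors and 3 normals of 3 mice was amplified to biotin-labelled cRNA with T7 polymerase and stained with Alexa-647, per the labels. Per the file headers, spots of the MEEBO mouse oligonucleotide set were quantified with GenePix Pro 4.1.1.4 as linear intensity, not normalized, together with a flag for each spot. The authors' deposited table holds linear intensity, which equals the background-subtracted spot median scaled by 1 factor per array; on every array 99.6% of probes or more fitted this to 0.1%. The selection of its 19327 probes is not described in the labels.

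Gene names came from RefSeq accessions (GRCm38.p6 table, used for names and promoters). The background was corrected with normexp (offset 50) on spot mean and local background, gene probes were quantile normalized, and 43 probes marked bad were left out. Above background means that the scanner software found the spot and its signal passed the 99th percentile of the array's 432 null spots. A gene needed this on 3 or more arrays, and its brightest probe stands for it. Differences on the log2 scale were tested with limma (lmFit, eBayes), the mouse as a fixed block and Benjamini-Hochberg adjustment over all 14478 genes. The labels give the animal of each sample, which pairs tumors and normals; correlations of paired deviations were 0.11, -0.067 and -0.078. The 7 tumors share 3 animals, so p-values measure the spread between samples more than between animals. The comparison of mouse 42 with mouse 41 fitted a mean for each mouse and tissue.

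The members and gene lists were chosen with earlier results of these data known. Named are all members, up to 4 genes of each goblet cell list with the lowest p, genes of those lists opposite to the rest, and the 5 genes most like the members. Other list genes named were chosen after their values were seen. The scaling to epithelial markers was chosen after seeing the data. The fits were tested on simulated data. Tests were run in limma 3.58.1 under R 4.3.3; tables and plots were made with matplotlib 3.10.9, numpy 2.4.6 and pandas 2.3.3 under Python 3.11.15.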

Additional observations from a re-analysis of the deposited data

Results flagged for a closer look

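Spink4 was higher in the tumor than in the normal of mouse 43, by 0.21 on the log2 scale, while all 3 tumors of mouse 41 and all 3 of mouse 42 were below the normal of their own mouse, by 0.14 to 0.19 and by 0.28 to 0.55. Mouse 43 gave 1 tumor, and the difference between the mice was not tested. That tumor is also an array with a high squamous score (2.48) and belongs to the later scan session, and the part of either in this value was not tested.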

How the results depend on the processing

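In 26 of 30 alternative settings the count of goblet cell genes lower in tumors was within 1.5 times of 7. It was 4 with the scan session as a block, 3 within the earlier session, 3 without mouse 42 and 4 to 8 when 1 array was left out. The 4 in these came without the normal of mouse 42, which takes that mouse's tumors out of the blocked difference too. Over the other 5 gene lists, relatives included, 50 were lower, with 33 for the spot median and 32 within the earlier session. The count higher, 1 as reported (the relative Spink2), was 2 with offset 16, the spot median, the mean of probes, no mouse block, the mouse as a random block and without mouse 41. It was 0 with genes above background on all 10 arrays, an adjusted p under 0.01, the session block, the earlier session and without mouse 43, 4 relative to epithelial markers, and 0 to 3 with 1 array left out. Between the tumors of mouse 42 and mouse 41, 0 goblet cell genes passed, 2 with median scaling and 0 to 1 with 1 array left out. Over all genes in that comparison, 14 were lower and 18 higher, but 123 and 23 with median scaling. Spink4 turned to 0.13 relative to epithelial markers. Without the mouse block (paired analysis dropped) 7 goblet cell genes were lower, as with it. Without mouse 42, Zg16 differed by -1.57 (limma adjusted p = 0.0860). Over all genes, 3438 were lower and 3749 higher, but 1355 and 1299 with the spot median, 1339 and 1526 in the deposited table, 1937 and 2053 without mouse 42, and 1588 and 1634 within the earlier session. The cause of these shifts was not tested. Some of these settings used fewer arrays, whereas the spot median and the deposited table used all 10 arrays. Signal over background was no limit for the 8 genes, which were above it on every array.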

Other observations

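Muc2 and Fcgbp had no measured level, but both have an entry in the RefSeq promoter table (GRCm38.p6). In the 250 bases before the start, Muc2 holds the E-box CAGCTG beginning 112 bases before the start, overlapping a FOXA match at 108 bases, and Fcgbp holds the E-box at 208 bases. Thus 2 of the 4 members in that table hold this E-box, against 13.0% of all promoters of this length, and these are the unmeasured ones. Of 2 measured members in it, Agr2 and Klk1, neither does.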
